A study of Mus musculus with 6 samples.

Results

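The lysosome is the acidic compartment in which cells break down proteins, sugars and lipids, and autophagy is the route that delivers a cell's own contents to it. The genes described here are 46 genes of these systems, taken by symbol from a list chosen with earlier results of these data known. All were found among the 37991 gene identifiers of the count files. They comprise 11 cathepsin proteases, 11 other lysosomal enzymes and their activators, 8 lysosomal membrane proteins and lipid transporters, 2 transcription factors and 14 genes of the autophagy machinery. They were measured by RNA sequencing in Müllerian duct mesenchyme of mouse embryos at embryonic day 14.5, in 3 female and 3 male libraries. The Müllerian duct becomes the female reproductive tract, and in males it regresses under anti-Müllerian hormone (AMH) from the testis, which acts through receptors in this mesenchyme. Embryos of both sexes had the genotype Amhr2Cre/+, R26R YFP/+ on a mixed C57BL/6J x 129/SvEv background, so females and males alike carried a Cre allele at Amhr2 and a YFP reporter at the Rosa26 locus. YFP-positive cells were collected by sorting; the reporter is on in any cell with Cre activity and in its descendants. Each library was a pool of 2 to 7 embryos, so animals were not measured singly, and sex and exposure to AMH cannot be told apart.

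Cathepsins are proteases of the lysosome, most of them active at acidic pH, and several can also be secreted and cut matrix proteins. Other enzymes take apart glycans and lipids, and membrane proteins such as LAMP1 and LAMP2 protect the boundary of the organelle. TFEB and TFE3 are transcription factors that enter the nucleus when nutrients are short and activate many lysosome and autophagy genes through a short promoter element named CLEAR. In autophagy, proteins of the ATG8 family (the LC3 and GABARAP proteins) are attached to the growing membrane, and receptors such as p62, the product of Sqstm1, link cargo to them. In regressing embryonic tissue both systems are known for the clearance of cell contents.

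Libraries held 22511872 to 24749859 counts in genes, and levels are given as CPM, a gene's counts relative to the library's total after adjustment with TMM factors. Of 12 duct mesenchyme markers, all were tested and their summed level was 5733 to 8482 CPM in female and 7552 to 8517 CPM in the male libraries, with Amhr2 itself present at 160.1 CPM or more in every library. The leukocyte markers, whose cells are rich in lysosomes, summed to 6.54 to 13.6 CPM in female and 8.17 to 15.7 CPM in the male libraries over 18 genes. Of these, 10 were below 1 CPM in every library, and the pan-leukocyte gene Ptprc was at most 0.514 CPM, with no count in female replicate 2 and male replicates 2 and 3. Duct epithelium markers summed to 326.1 to 818.4 CPM in female and 204.4 to 528.0 CPM in the male libraries, and Sertoli cell markers to 43.9 to 62.7 and 93.2 to 141.4 CPM. The Sertoli sums did not overlap between the sexes. In the test described below, 3 of 9 tested Sertoli markers were called higher in male, where 0.841% of all genes were. For the epithelium 1 of 9 tested markers was called lower, where 0.387% of all genes were. No leukocyte or mesenchyme marker was called. The part of these cells in the results below was not tested. Replicates 1 and 2 stood apart from each other within both sexes, so the values without both libraries of a replicate number, an alternative chosen after the data were seen, are given with the summed result. In these bulk libraries fewer cells of a type and less RNA per cell cannot be told apart.

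Most lysosome and autophagy genes had higher fitted levels in male than in female mesenchyme, but none of them passed the main test, which had sex as its only term. Of 45 members with enough counts to be tested, 40 had a positive log2 fold change of male over female and 5 had a negative value, with a median of 0.35, which is 1.27-fold. Over all 15227 genes tested 49.5% were positive and the median was −0.01. The single member left out by the filter on low counts was Ctss. No member was called higher and none lower by edgeR's quasi-likelihood test at an adjusted p under 0.05, where 0.841% of all genes were called higher, 0.387% lower and 1.23% in either direction. At an unadjusted p under 0.05 there were 2 of 45 members, Ctsk and Lipa, and 9.18% of all genes. DESeq2 called 1 of 45 members, Ctsk, and 5.06% of all genes. With a term for the replicate number added, edgeR called 23 of 45 members, 20 higher and 3 lower. That was 51.1% of the members, against 27.3% of all genes. The labels do not say that the numbers mark pairs, so that fit is given as an alternative, and the absence of calls depends on this choice. Male and female libraries did not overlap for 4 members, 8.89% of those tested, against 13.7% of all genes tested. Ctsk had all male libraries below all female libraries, as had 7.27% of all genes, and Lipa, Npc1 and Atg16l1 had all male libraries above, as had 6.47%. In this fit the smallest absolute log2 fold change called among all genes was 1.93, and the standard errors of the members ran from 0.27 to 0.72.

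The median depended on single libraries. It was 0.16 without female replicate 1, 0.63 without female replicate 2, 0.56 without male replicate 1 and 0.15 without male replicate 2, beside medians of all genes of 0.06, −0.01, −0.10 and 0.02. Without both libraries of replicate 1, 2 or 3 it was 0.36, 0.44 and 0.30, with 35 of 45, 42 of 46 and 37 of 45 members positive. The counts of all 46 members summed to 0.335%, 0.617% and 0.461% of the counts in genes in female replicates 1 to 3 and to 0.429%, 0.817% and 0.697% in male replicates 1 to 3. The sexes overlapped in this share, since female replicate 2 lay above male replicate 1.

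**Figure D1:**
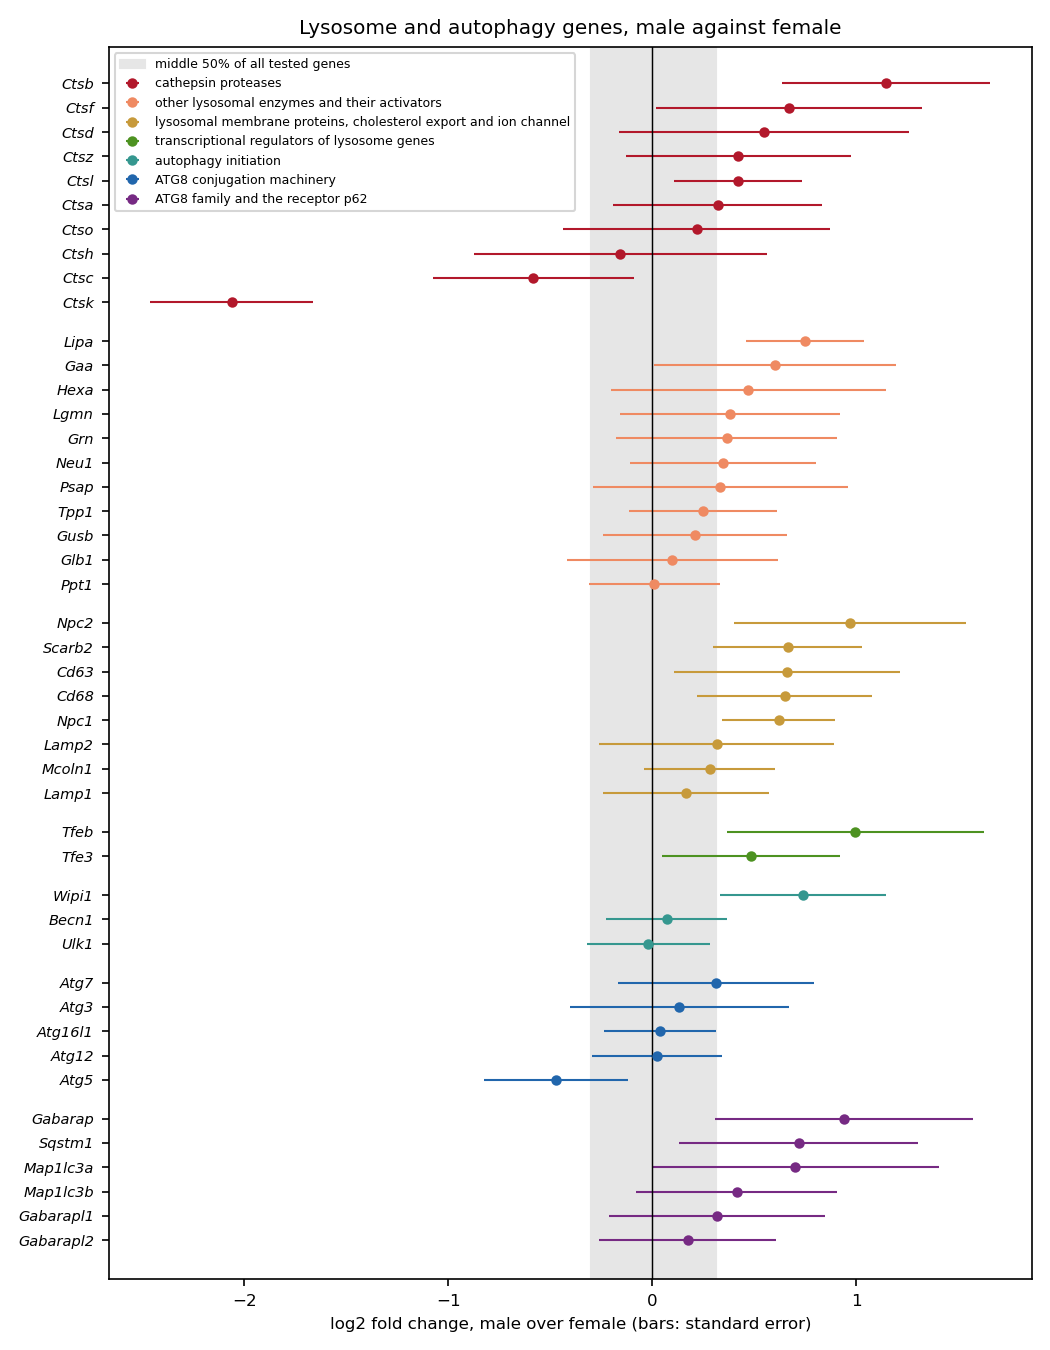
Log2 fold change of male over female for the 45 tested members, grouped by role, as points with standard error bars; the grey band holds the middle 50% of all tested genes. Points lie to the right of 0 for 40 genes, and Ctsk, at −2.06, lies farthest from 0.

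The cathepsin genes held both the member with the lowest and the member with the highest log2 fold change. Of 11 genes 10 were tested, 7 with a positive and 3 with a negative log2 fold change, and the median was 0.37. Ctsk (ENSMUSG00000028111) encodes cathepsin K, a collagen-cutting protease best known from osteoclasts. It stood at 42.3, 74.9 and 49.8 CPM in female replicates 1 to 3 and at 10.1, 17.99 and 11.9 CPM in male replicates 1 to 3. Every male library was below every female library. The means were 55.7 ± 17.1 CPM in female and 13.3 ± 4.13 CPM in the male libraries (SD, n = 3 each). By the fit the female level was 4.17-fold higher. The log2 fold change of −2.06 (SE 0.40) missed the threshold over all genes, with an edgeR adjusted p of 0.0713. It passed in 3 of 16 alternatives that kept sex as the only term, over which the adjusted p ran from 0.000341 to 1. These were DESeq2 (adjusted p = 0.000341, where 2.15% of all genes were called lower), an offset for transcript GC content and length (edgeR adjusted p = 0.00618, where 2.88% were), and leaving out both libraries of replicate 1 (edgeR adjusted p = 0.0446, where 0.863% were). Leaving out single libraries gave log2 fold changes from −2.34 to −1.78, with edgeR adjusted p-values from 0.130 to 0.450.

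As a share of all cathepsin counts, which does not depend on the scaling between libraries, Ctsk made up 6.33% (exact Clopper-Pearson 95% interval 5.98% to 6.69%), 4.41% (4.19% to 4.63%) and 4.99% (4.72% to 5.27%) in female replicates 1 to 3. In male replicates 1 to 3 it made up 1.13% (0.995% to 1.27%), 0.765% (0.688% to 0.847%) and 0.654% (0.580% to 0.735%). These intervals cover counting error only, and the share was chosen after the values were seen. All male shares lay below all female shares. The share also depends on the other cathepsins, so it does not measure Ctsk by itself. All cathepsin counts together were 18193, 34544 and 24947 in female replicates 1 to 3. In male replicates 1 to 3 they were 23534, 47596 and 43092. Of the 8 osteoclast markers, Acp5, an acid phosphatase of osteoclasts, was at 1.32 to 6.98 CPM in female and 1.26 to 4.004 CPM in the male libraries, and 5 were below 1 CPM in every library. Those 5 included Calcr, Ocstamp and Dcstamp, while Mmp9 and Itgb3 were at 21.3 to 43.0 and 6.54 to 10.3 CPM. The markers' summed level was 31.3 to 50.5 CPM in female and 29.98 to 53.4 CPM in the male libraries, so the sexes overlapped. The part of such cells in the Ctsk values was not tested.

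Ctsb, which encodes cathepsin B, a broadly made cysteine protease, had the highest log2 fold change of all members. Its levels were 146.4, 379.9 and 234.0 CPM in female replicates 1 to 3 and 309.6, 741.0 and 630.2 CPM in male replicates 1 to 3. The groups overlapped, because female replicate 2 exceeded male replicate 1. The log2 fold change was 1.14 (SE 0.51, edgeR adjusted p = 0.605). It did not pass in any of the 16 alternatives without a replicate term, and passed in the 2 with that term. Exons of Ctsb overlap those of Fdft1 on the opposite strand in the GENCODE M21 annotation, and reads of that stretch cannot be told apart with a kit that does not mark strand. Ctsl, which encodes cathepsin L, was at 127.7, 182.1 and 123.0 CPM in female and at 180.5, 207.4 and 191.2 CPM in the male libraries. Only female replicate 2 reached into the male range, and the log2 fold change was 0.42 (SE 0.32, edgeR adjusted p = 1).

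**Figure D2:**
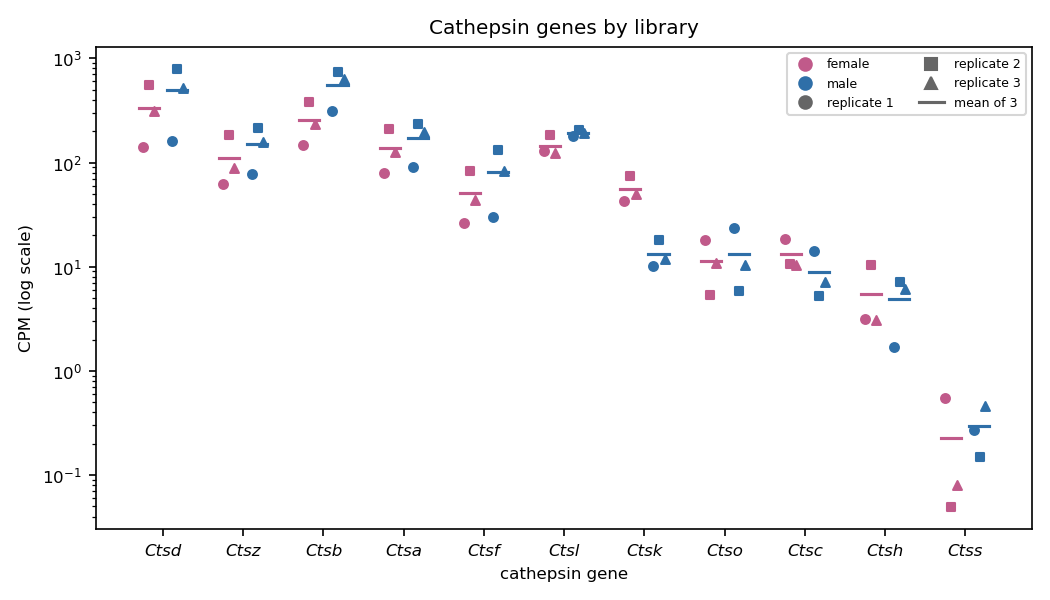
CPM of the 11 cathepsin genes in each library on a log axis, female and male side by side, with a shape for each replicate number and a line at the mean of 3; genes are ordered by CPM per kilobase. Ctsk is the gene whose male points, 10.1 to 17.99 CPM, all lie below its female points, 42.3 to 74.9 CPM.

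The other cathepsins spread widely within each sex. Ctsd, which encodes the aspartic protease cathepsin D, ran from 142.1 to 559.0 CPM in female and from 162.1 to 791.7 CPM in the male libraries. Per kilobase of the longest reference transcript it was the most abundant cathepsin and ranked 3 among all members, at 194.9 CPM per kilobase. Ctsa, Ctsf and Ctsz had log2 fold changes of 0.32, 0.67 and 0.42, Ctso had 0.22, and Ctsh and Ctsc, the latter a protease that activates granule enzymes of blood cells, had −0.16 and −0.58. All of them had an edgeR adjusted p of 1. Ctss, a cathepsin typical of macrophages and other antigen-presenting cells, was at 0.551, 0.0492 and 0.0800 CPM in female and 0.268, 0.148 and 0.463 CPM in the male libraries and was the member with the lowest level.

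All 11 other lysosomal enzymes and activators had a positive log2 fold change, from 0.01 for Ppt1 to 0.75 for Lipa, and none passed. Lipa encodes the acid lipase that splits cholesteryl esters and triglycerides inside the lysosome. It was at 26.6, 31.8 and 27.6 CPM in female replicates 1 to 3 and at 43.4, 52.1 and 48.8 CPM in male replicates 1 to 3. All male libraries lay above all female libraries, and the spread within each sex was small beside that of most members. The means were 28.6 ± 2.75 and 48.1 ± 4.39 CPM (SD, n = 3 each), and its log2 fold change was 0.75 (SE 0.29, edgeR adjusted p = 0.464.)

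Gaa, the acid alpha-glucosidase that degrades glycogen, was at 74.3, 209.2 and 144.5 CPM in female and 86.9, 321.9 and 241.3 CPM in the male libraries. The sexes overlapped, and the log2 fold change was 0.60 (SE 0.59, edgeR adjusted p = 1). Neu1, a sialidase, was at 14.1, 28.1 and 19.7 CPM in female and 15.1, 37.5 and 26.2 CPM in the male libraries, again with overlap. Its log2 fold change was 0.35 (SE 0.46, edgeR adjusted p = 1). Psap encodes prosaposin, the precursor of the saposins that present sphingolipids to their hydrolases. Per kilobase of the longest reference transcript, which need not be the one expressed, Psap was the highest member, at 254.1 CPM over all libraries. Its level was 293.5, 967.1 and 531.3 CPM in female and 337.9, 1217 and 704.0 CPM in the male libraries. Replicate 1 was lowest and replicate 2 highest in both sexes, and the log2 fold change was 0.33 (SE 0.63, edgeR adjusted p = 1), smaller than its standard error. It turned to −0.20 without male replicate 2. The remaining enzymes, Hexa, Glb1, Gusb, Ppt1, Tpp1 and Lgmn, and the granulin precursor gene Grn had log2 fold changes between 0.01 and 0.47 with an adjusted p of 1.

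All 8 lysosomal membrane and lipid transport genes had a positive log2 fold change, with a median of 0.63. NPC1 and NPC2 pass cholesterol on to leave the lysosome, NPC2 within the lumen and NPC1 in the membrane. Npc1 was at 34.4, 30.6 and 34.7 CPM in female replicates 1 to 3 and at 51.0, 51.4 and 50.6 CPM in male replicates 1 to 3. The male libraries lay close together and all above the female ones, and the log2 fold change was 0.62 (SE 0.28, edgeR adjusted p = 0.605). Npc2 was at 161.2, 466.7 and 242.0 CPM in female and 283.2, 840.8 and 579.1 CPM in the male libraries. Its female replicate 2 reached into the male range, and the log2 fold change was 0.97 (SE 0.57, edgeR adjusted p = 0.869). Scarb2, which encodes LIMP-2, the membrane protein that carries glucocerebrosidase to the lysosome, was at 10.7, 7.72 and 7.72 CPM in female and 16.3, 15.5 and 9.65 CPM in the male libraries. Male replicate 3 lay below female replicate 1, and the log2 fold change was 0.66 (SE 0.37, edgeR adjusted p = 0.806).

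The tetraspanin gene Cd63 and the gene of the macrophage-rich membrane protein Cd68 had log2 fold changes of 0.66 and 0.65. Cd68 stood at 2.90 to 5.40 CPM in female and 4.59 to 7.88 CPM in the male libraries. Lamp1 was at 178.2, 348.8 and 245.7 CPM in female and 193.1, 354.5 and 319.4 CPM in the male libraries, and Lamp2 at 227.6, 88.9 and 179.8 CPM in female and 352.9, 100.2 and 164.2 CPM in the male libraries. The libraries with the most Lamp1 had the least Lamp2, within each sex. Their log2 fold changes were 0.17 and 0.31, and that of Mcoln1, which encodes the calcium channel TRPML1 of the lysosomal membrane, was 0.28.

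Both transcription factor genes had positive log2 fold changes and neither passed. Tfeb was at 2.90, 10.6 and 6.48 CPM in female replicates 1 to 3 and at 5.66, 18.1 and 16.01 CPM in male replicates 1 to 3. The sexes overlapped at male replicate 1, and the log2 fold change was 0.995 (SE 0.63, edgeR adjusted p = 0.921). Tfe3 was at 35.2, 71.1 and 51.0 CPM in female and 43.2, 95.2 and 81.6 CPM in the male libraries, with overlap, and the log2 fold change was 0.48 (SE 0.44, edgeR adjusted p = 1.) Per kilobase, Tfe3 stood at 9.94 and Tfeb at 4.25 CPM. These are levels of RNA; the location and activity of both proteins, which decide what they do, were not measured.

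Letters of the CLEAR element, TCACGTGA, read the same on both strands and hold the E-box CACGTG. They were searched in RefSeq promoter windows of the build GRCm38.p6, from 250 bases before to 50 after each start. The table held 39 of the 46 members. CLEAR letters were found in 4 of them, Ctsa, Ctsd, Mcoln1 and Atg3, or 10.3%, and in 1.13% of all genes in the table. The E-box letters, within CLEAR letters or without them, were found in 12 members, or 30.8%, and in 8.09% of all genes. These 12 include the 4 members with CLEAR letters. A match describes the letters of the window only. The 4 stretches are shown because they place these letters on named members, 5′ to 3′ on the gene's strand, with the letters in capitals. The count files use the build mm9 and were not joined to these positions.
Ctsa, chr2:164833736-164833802, plus strand: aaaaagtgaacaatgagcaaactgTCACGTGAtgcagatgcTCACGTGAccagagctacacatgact
Ctsd, chr7:142387895-142387950, minus strand: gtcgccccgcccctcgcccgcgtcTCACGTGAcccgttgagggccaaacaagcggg
Mcoln1, chr8:3500449-3500504, plus strand: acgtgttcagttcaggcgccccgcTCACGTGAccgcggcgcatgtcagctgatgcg
Atg3, chr16:45158733-45158788, plus strand: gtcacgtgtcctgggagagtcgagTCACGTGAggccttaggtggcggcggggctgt

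Ctsa held the letters at 2 places, on both sides of a start that lies downstream of another start of the gene. The first bases of the matches in Ctsd, Mcoln1 and Atg3 lay 99, 46 and 72 bases before the start. The 4 genes had log2 fold changes of 0.32, 0.55, 0.28 and 0.13, none past the threshold, and they spanned the lysosomal proteases, the calcium channel and the enzyme that attaches ATG8 proteins to lipid.

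The autophagy genes are given by step, and differences between the steps were not tested. Of the 3 genes that start autophagosome formation, Wipi1, whose product binds a membrane lipid at the forming autophagosome, was at 29.1, 18.4 and 25.5 CPM in female and 55.5, 24.3 and 41.9 CPM in the male libraries. Male replicate 2 lay below the 2 higher female libraries, and the log2 fold change was 0.74 (SE 0.41, edgeR adjusted p = 0.810). The kinase gene Ulk1 was at 93.4, 109.99 and 110.4 CPM in female and 92.7, 121.8 and 95.1 CPM in the male libraries. Becn1, which encodes a subunit of the lipid kinase complex, was at 43.3, 37.2 and 36.0 CPM in female and 47.9, 35.7 and 38.7 CPM in the male libraries. Both had sexes that overlapped fully, and their log2 fold changes were −0.02 (SE 0.30) and 0.07 (SE 0.30), each with an edgeR adjusted p of 1. These signs turned in some alternatives: Ulk1 was positive with DESeq2 size factors and Becn1 negative without male replicate 1. Exons of Becn1 overlap Cntd1 on the opposite strand over 3104 bases.

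The 5 genes that attach ATG8 proteins to membranes had a median log2 fold change of 0.04. Atg5, part of the complex that directs the attachment, was at 40.9, 32.6 and 38.2 CPM in female and 34.0, 17.8 and 28.8 CPM in the male libraries. Male replicate 1 lay above female replicate 2, and the log2 fold change was −0.47 (SE 0.35, edgeR adjusted p = 1). Atg7, which encodes the activating enzyme, was at 25.1, 60.8 and 40.7 CPM in female and 28.8, 67.0 and 61.3 CPM in the male libraries, with a log2 fold change of 0.31 (SE 0.48). Atg3 was at 21.9, 9.64 and 20.6 CPM in female and 28.1, 8.85 and 20.3 CPM in the male libraries, with a log2 fold change of 0.13 (SE 0.54), which was −0.16 without female replicate 2 and −0.26 without male replicate 1. Atg12 had a log2 fold change of 0.02. Atg16l1, the scaffold of that complex, was the most even member: all libraries lay between 52.9 and 55.2 CPM, and although the male values lay above the female ones the log2 fold change was 0.04 (SE 0.27).

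For the ATG8 family and p62 all 6 log2 fold changes were positive, from 0.17 to 0.94, with a median of 0.56, and none passed. Gabarap was at 113.8, 387.2 and 202.4 CPM in female and 186.0, 664.7 and 500.4 CPM in the male libraries. At 253.4 CPM per kilobase of the longest reference transcript, Gabarap ranked 2 among the members. The sexes overlapped, and the log2 fold change was 0.94 (SE 0.63, edgeR adjusted p = 0.971). Sqstm1 was at 159.0, 475.4 and 289.5 CPM in female and 226.2, 718.8 and 573.5 CPM in the male libraries, and its log2 fold change was 0.72 (SE 0.58, edgeR adjusted p = 1.) Map1lc3a was at 36.7, 164.3 and 85.8 CPM in female and 56.0, 235.3 and 175.2 CPM in the male libraries, and its log2 fold change was 0.70 (SE 0.70, edgeR adjusted p = 1.) Of these genes, too, replicate 1 was lowest and replicate 2 highest in each sex. Map1lc3b, Gabarapl1 and Gabarapl2 had log2 fold changes of 0.41, 0.32 and 0.17. Members of this family resemble each other, and reads shared between close copies are uncertain.

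Most members also varied between libraries of the same sex. In 28 of 45 tested members, or 62.2%, replicate 1 was the lowest and replicate 2 the highest library in both sexes, a pattern found in 31.2% of all tested genes. In 7 members, among them Lamp2, Atg3 and Ctso, it was the reverse in both sexes. The ratio of the highest to the lowest library had a median of 2.42 in female and 2.49 in male and reached 4.48 and 4.88. The direction went with base composition: over the 45 members, the GC content of the longest reference transcript correlated with log2 replicate 2 over replicate 1, averaged over the sexes, at r = 0.77, and over 14674 tested genes at r = 0.71. Genes are not independent replicates and all points share the same libraries, so these are descriptions. The members' transcripts ran from 38.7% GC for Lamp2 to 63.2% for Tfeb, with a median of 51.5% beside 49.99% for all tested genes. GC content correlated with the log2 fold change of male over female at r = 0.33 over the members and r = 0.16 over all genes. With an offset for GC content and length the members' median log2 fold change was 0.27 in place of 0.35, beside 0.01 for all genes, with 40 of 45 positive, and Ctsk was the 1 member that passed.

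**Figure D3:**
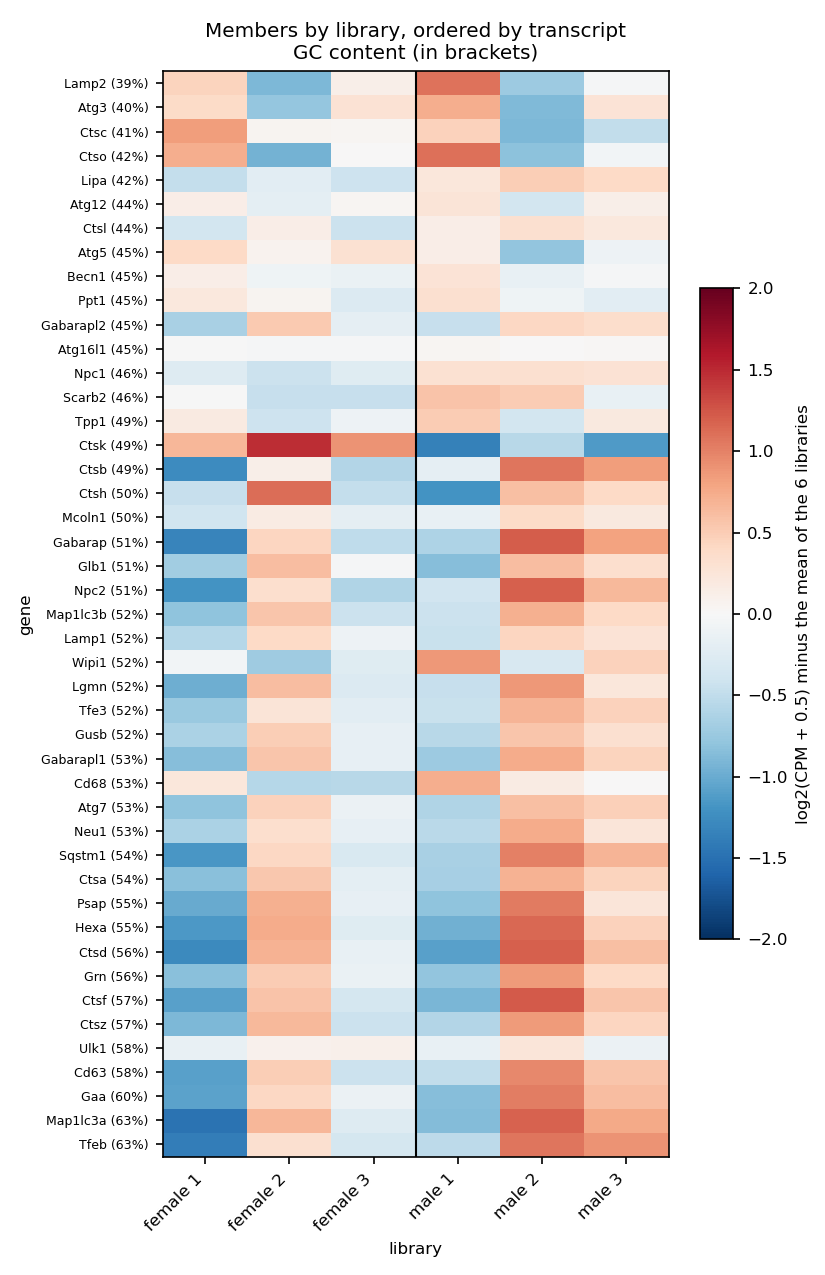
Log2 CPM of each tested member in each library minus the gene's mean over the 6 libraries, in colour, with genes ordered by transcript GC content (in brackets). Replicate 1 is low and replicate 2 high in both sexes for most genes of high GC content and the reverse for most of low GC content; Ctsk follows the order of the replicates within each sex, with its 3 female libraries above its 3 male ones.

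**Figure D4:**
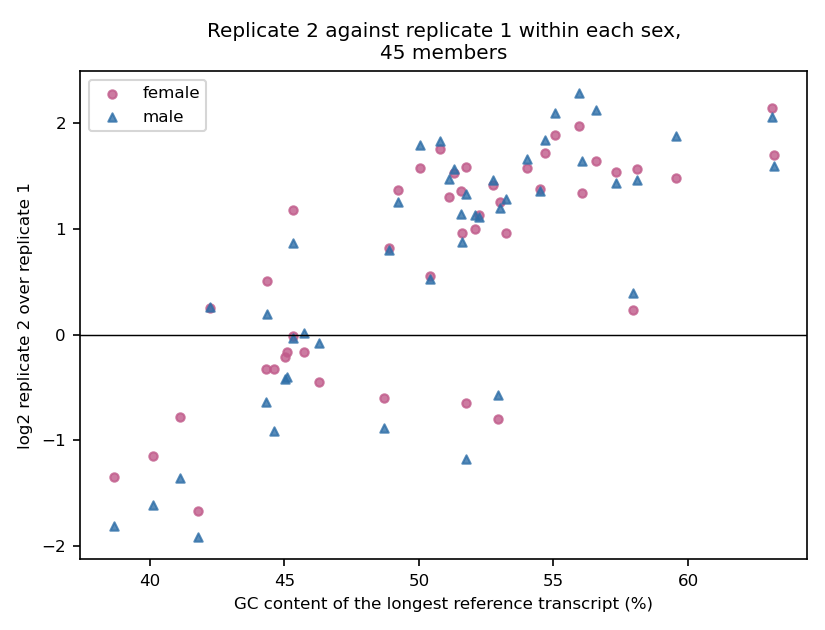
Log2 ratio of replicate 2 over replicate 1 within female (circles) and male (triangles) against transcript GC content for the 45 tested members. In 31 members replicate 2 lay above replicate 1 in both sexes and in 13 below in both.

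The other genes of the pathway were 161 genes in 9 lists that hold no member. Like the members, these lists were chosen with earlier results of these data known. Of 154 tested, 107 or 69.5% had a positive log2 fold change, beside 88.9% of the members and 49.5% of all genes, and their median was 0.18. Of the 154, 1 was called higher and none lower, where 0.841% and 0.387% of all genes were. The median was 0.22 for 28 further hydrolases, 0.26 for 17 subunits of the V-ATPase, the pump that acidifies the lysosome, and 0.22 for 19 further membrane proteins. It was 0.14 for 16 genes that sort enzymes to the lysosome, 0.04 for 19 genes of nutrient signalling at the lysosome, 0.12 for 25 further autophagy genes, 0.33 for 12 autophagy receptors and 0.16 for 14 genes of fusion with the lysosome. Male and female libraries did not overlap for 14 of the 154, with 9 higher and 5 lower in male, where 13.7% of all genes tested did not overlap.

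The gene that passed was Cst9, a cystatin-type gene of the testis, at 2 counts over the female libraries and 206 over the male libraries, a count ratio of 102.2 (95% interval 27.9 to 850.0, counting error only; edgeR adjusted p = 0.0226). It is also in the Sertoli cell list, and it no longer passed when female replicate 1, 2 or 3, or the second or the third male library, was left out (edgeR adjusted p = 0.0719, 0.0712, 0.220, 0.0635 and 0.153), nor without both libraries of replicate 2 or 3 (0.133 and 1). Cst3, which encodes the widely made inhibitor cystatin C, had a log2 fold change of 0.47.

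Igf2r encodes the large mannose 6-phosphate receptor, which carries new enzymes to the lysosome and also clears IGF2 from the cell surface. It was at 383.1, 280.6 and 417.5 CPM in female and 1243, 905.4 and 795.5 CPM in the male libraries. All male libraries lay above all female ones, and the log2 fold change of 1.45 (SE 0.37) missed the threshold (edgeR adjusted p = 0.162), although it passed in 2 of 16 alternatives without a replicate term, over which the adjusted p ran from 0.00378 to 1. M6pr, the smaller receptor of the same sugar tag, had a log2 fold change of −0.01 (SE 0.29). Rragd, which encodes a GTPase that brings mTORC1 to the lysosome, was at 11.7, 4.62 and 9.32 CPM in female and 2.98, 2.08 and 2.61 CPM in the male libraries. All male values were lower, and the log2 fold change was −1.74 (SE 0.45, edgeR adjusted p = 0.175). It passed in 2 of the 16 alternatives (adjusted p from 0.0150 to 1).

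Bnip3, a receptor for the autophagy of mitochondria, was at 27.1, 22.9 and 21.5 CPM in female and 50.1, 40.7 and 49.3 CPM in the male libraries, without overlap (log2 fold change 0.97, SE 0.30, edgeR adjusted p = 0.266). Atp6v0a1, a V-ATPase subunit, had 0.64 (SE 0.28, edgeR adjusted p = 0.587) with male libraries between 85.3 and 90.1 CPM and female ones between 53.1 and 58.4 CPM. Arsb, a sulfatase of glycosaminoglycans, and Slc36a1, an amino acid exporter of the lysosome, had −0.64 and −0.58 with all male libraries below all female ones. Neither passed (SE 0.29 and 0.30, edgeR adjusted p = 0.622 and 0.74). Zfyve1 and Arl8a had 0.46 and 0.66 (SE 0.31 and 0.365, edgeR adjusted p = 0.972 and 0.805).

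**Figure D5:**
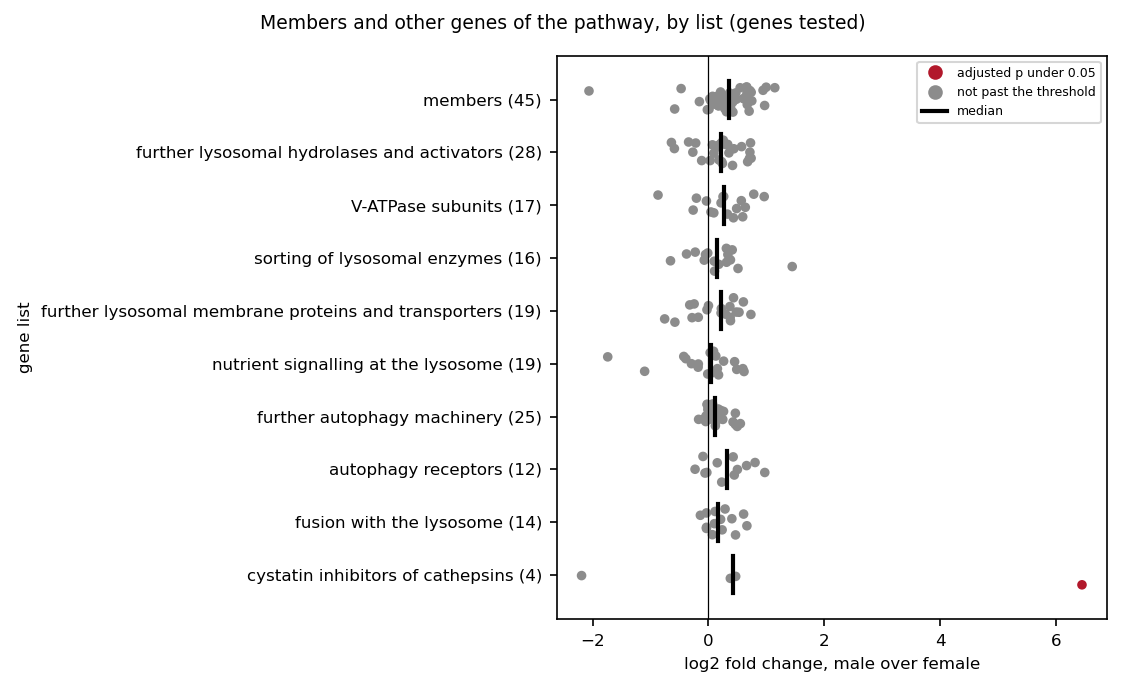
Log2 fold change of male over female for each tested gene of the members and of 9 other pathway lists, with the median as a bar and the number tested in brackets. Most points lie within 1 of 0, and the point at the far right is Cst9, whose fitted value rests on 2 female counts and is no measure of size.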

How the data were processed

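Gene counts of 6 libraries of YFP-sorted cells were used as the authors deposited them: raw counts per Ensembl gene from paired 76-base reads of TruSeq v2 libraries made from at least 100 ng of total RNA, per the labels' protocols. The submitters' processing notes name TopHat, HTSeq and DESeq, with no version or role, and mm9 as the build. Which annotation was counted, and with which strand setting, is not given in the sources used here. All 5 summary lines that name no gene entered neither library sizes nor tests; counts outside genes were 3.53% to 18.2% and ambiguous ones 6.51% to 10.0% of the uniquely placed counts. Symbols came from GENCODE M21 (32919 of 37991 identifiers), as did transcript length and GC content; its build, GRCm38, differs, so it was joined by identifier only.

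Genes kept by filterByExpr (15227) were given TMM factors and went into the robust quasi-likelihood test of edgeR 4.0.16 in R 4.3.3 (two-sided, with no term beside sex, Benjamini-Hochberg over all genes tested, threshold 0.05). Each standard error is the size of the log2 fold change divided by the root of its F statistic. The scripts were tested on simulated counts. Alternatives were other scalings and filters, DESeq2 1.42.0, limma-voom 3.58.1, a replicate block, a GC content and length offset (splines with 5 degrees of freedom per library, 96.4% of genes) and leaving out libraries. Members and lists were chosen with earlier results of these data known. Full values are given for members past the threshold and for the 3 with the smallest p in each of 7 roles. They are also given for both transcription factors and the 2 most abundant members per kilobase. Of each other list, up to 4 genes past the threshold or the gene with the smallest p are named, some without values in each library. Further members were named, and Acp5, Ptprc, Cst3 and M6pr, after their values were seen.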

Additional observations from a re-analysis of the deposited data

Results flagged for a closer look

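Counts outside annotated genes entered no comparison, and no control library gives them a background other than 0. Of the uniquely placed counts they made up 17.5%, 3.53% and 8.65% in female libraries 1, 2 and 3. The male libraries 1, 2 and 3 had 18.2%, 5.45% and 5.501%. These shares were highest in the replicate 1 libraries. In 28 of the 45 tested members replicate 1 was the lowest and replicate 2 the highest library in both sexes. That was 62.2% of the tested members, against 31.2% of all tested genes.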

How the results depend on the processing

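The members' median log2 fold change stayed positive in all 18 alternatives, between 0.15 and 0.63. The mean summed CPM of the members was 4734 in female and 6759 in male. Other scalings, filters and the offset gave 4678 to 4863 and 6566 to 6882. Without single libraries of the same sex it was 3686 to 5577 and 5530 to 8150. With 3 libraries per sex, leaving 1 out cannot move a mean by 1 SD, so the SD is no yardstick there. The number of genes called by edgeR over all genes was 187 and became 771 with DESeq2, 916 with the GC content and length offset (477 higher and 439 lower, against 128 and 59), 0 to 173 without single libraries (0 without female or male replicate 3), and 354, 0 and 0 without both libraries of replicate 1, 2 or 3. At an unadjusted p under 0.05 the 4 fits with no call had 884 and 938 genes (single libraries) and 1103 and 455 (both libraries of replicate 2 or 3). Among the members 0 became 1, Ctsk, with DESeq2, with the offset and without both libraries of replicate 1. The number stayed 0 without any single library. Of 154 other pathway genes, 1 was called in the main fit, 4 with DESeq2 (5.06% of all genes were) and 3 with the offset (6.02% were). Their number was 0 to 1 without single libraries and 0 without both libraries of replicate 2 or 3. With the replicate block, 4164 genes were called, or 27.3% of all genes, with 23 members (20 higher and 3 lower, 51.1% of the members). Of the 154 other pathway genes 41 were called with the block. With the block and the offset 4517 genes (29.7%), 21 members (46.7%) and 53 of the 154 were called. Both fits called 19 of the members. The labels do not say that a number marks a shared litter or day, so the numbers were not taken as pairs. Deviations from the group means correlated between same-numbered libraries at 0.95, 0.90 and −0.05. Female replicate 3 was closest to male replicate 1 (0.22), and male replicate 3 was closest to female replicate 2 (0.64). The replicate 3 libraries of the sexes thus lay on different sides of the contrast between replicates 1 and 2. Within a sex a gene's deviations cancel out, so that of each replicate follows from the others, and the correlations are not independent. Same-numbered libraries went together for replicates 1 and 2 but not for replicate 3. These values do not settle whether the numbers mark pairs, and the block is given as an alternative. Signs turned for Ulk1 (0.01494 with DESeq2 size factors, 0.01487 with DESeq2 and 0.06167 without both libraries of replicate 3; −0.16 to 0.06 without single libraries) and Atg3 (−0.06 without both libraries of replicate 1; −0.26 to 0.47 without single libraries). Without single libraries the range was −0.06181 to 0.16 for Becn1, −0.00434 to 0.64 for Neu1 and −0.20 to 0.88 for Psap. The causes were not tested. DESeq2, limma-voom and the block give no summed CPM. The smallest absolute log2 fold change that edgeR called with TMM scaling, sex as the only term and all 6 libraries was 1.93. Other fits called smaller changes, such as Igf2r at 1.59 with the offset and Ctsl at 0.44 with the replicate block.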
